A study of Rattus norvegicus with 46 samples.

Results

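The genes described here encode the subunits of potassium channels. They were taken as every gene whose array probe sets (groups of short probes that together measure 1 transcript) carry a single symbol beginning with Kcn, with the probe set of highest mean standing for a gene that has several. This gave 73 genes, covered by 108 probe sets, of 10411 genes with a single symbol on the array. The level of 50 of them was above the 30th percentile of mean log2 intensity over all probe sets, and the other 23 lay below it.

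Potassium channels let potassium leave the cell along its gradient, which sets the resting potential of neurons and ends each action potential. Voltage-gated (Kv) channels open on depolarisation and are built from pore-forming alpha subunits, from silent subunits that reach the surface only inside a mixed channel, and from auxiliary subunits that change gating or delivery. Inward rectifiers and two-pore channels are open near rest and hold the membrane potential, and the inward rectifiers of astrocytes also take up potassium that neurons release. Chlorpyrifos is an organophosphate insecticide whose oxon metabolite inhibits acetylcholinesterase, so that acetylcholine persists at its receptors. Muscarinic receptors for acetylcholine close the Kcnq channels of the M-current and act through G proteins on the Kcnj3 family.

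Male F344 rats aged 11 to 12 weeks were each given 1 dose of chlorpyrifos or its vehicle, and a piece of frontal lobe of about 30 mg was taken 96 hours later for total RNA. Each animal was measured on 1 Affymetrix rat array, and the labels name no genotype other than the strain. The study comprised 3 separate experiments, A, B and C, each with its own vehicle animals. Experiment A gave 3 vehicle arrays, 3 at 1 mg/kg, 5 at 10 mg/kg and 3 at 50 mg/kg. Experiment B gave 4 vehicle arrays, 3 at 0.5 mg/kg, 1 at 5 mg/kg and 3 at 30 mg/kg. Experiment C gave 3 vehicle arrays, 4 at 1 mg/kg, 3 at 5 mg/kg and 4 at 10 mg/kg. These are 39 of 46 columns. The other 7 columns had a median log2 correlation with the other columns of -0.0042 to -1.2e-05, against 0.942 to 0.969 for the 39, so their rows could not be matched to probe sets and they were left out. They include both 30 mg/kg arrays of experiment C. The 50 mg/kg animals all belong to experiment A, and the 0.5 and 30 mg/kg arrays used all belong to experiment B. The vehicle group of experiment B carries a second line in its description that gives 1 mg/kg, against its title, and it is used here as labelled in the title. In experiment C, vehicle animal 1 and animals 2 and 3 at 10 mg/kg are labelled as a first repeat, which the labels do not explain.

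Of the 8 cortical neuron markers measured, Nrgn, Slc17a7, Camk2a and Nrn1 were at the 99.2th, 98.8th, 96.7th and 95.3th percentile of all probe sets. Rasgrf2, Tbr1, Neurod1 and Cux2 lay nearer the middle, at the 62.9th, 58.7th, 55.5th and 54.4th percentile. The pieces also differed from one another. The mean level of 11 striatal markers, on a log2 scale, ran from 7.52 to 11.09 over the 39 arrays. Oxytocin, vasopressin and Pmch, which mark hypothalamus, averaged between 10.70 and 12.04 on 4 arrays (animals 3 and 4 of the 50 mg/kg group and animal 2 of the 1 mg/kg group in experiment A, and vehicle animal 3 of experiment C) and at most 9.29 on the others. Choroid plexus markers averaged 8.56 or more on 5 arrays and at most 7.91 on the other 34. The 3'/5' ratio of actin, a sign of RNA integrity that rises with degradation, was 1.66 to 2.15 in the vehicle animals of experiment B and 1.32 to 1.61 in its dosed animals, without overlap. It reached 4.72 on 1 array at 1 mg/kg in experiment C. The single 5 mg/kg array of experiment B had a median intensity of 112.2, against 228.3 to 285.6 on the others.

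No potassium channel gene passed the test for a change at any dose, in groups of 1 to 5 arrays. With limma and Benjamini-Hochberg adjustment over the 11106 probe sets above the 30th percentile, with dose and experiment as terms and an adjusted p of 0.05 as threshold, 0 of the 50 tested genes were called at 0.5, 1, 5, 10, 30 or 50 mg/kg. The background was as low. The share of all probe sets called was 0% at each dose other than 50 mg/kg, where 2 probe sets, 0.018%, passed. A test for a change at any dose and a test for a trend over log2(dose + 1) each called 0 of the 50 genes and 0% of all probe sets. At an unadjusted p under 0.05, the potassium channel genes numbered 6 at 0.5 mg/kg (12% of the 50, against 7.63% of all probe sets), 0 at 1 mg/kg (against 2.53%), 2 at 5 mg/kg (4% against 2.50%), 2 at 10 mg/kg (4% against 2.67%), 9 at 30 mg/kg (18% against 9.27%) and 6 at 50 mg/kg (12% against 8.0%). The trend gave 7 genes (14% against 7.67%) and the test for any dose gave 4 (8% against 6.19%). These shares were above the background in most of the tests, but they cover few genes measured on the same arrays.

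The genes went both ways, and individual differences reached about 1 log2 unit. The median difference of the 50 genes from vehicle, on the log2 scale, was 0.13, -0.02, 0.02, 0.00, 0.05 and -0.10 from the lowest dose to the highest, and the median over all probe sets lay between -0.005 and 0.006. At 0.5 mg/kg 34 of the 50 genes were higher than vehicle, at 30 mg/kg 28, and at 50 mg/kg 17. The spread of the genes was widest at 50 mg/kg, from -1.09 to 0.98.

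**Figure D1:**
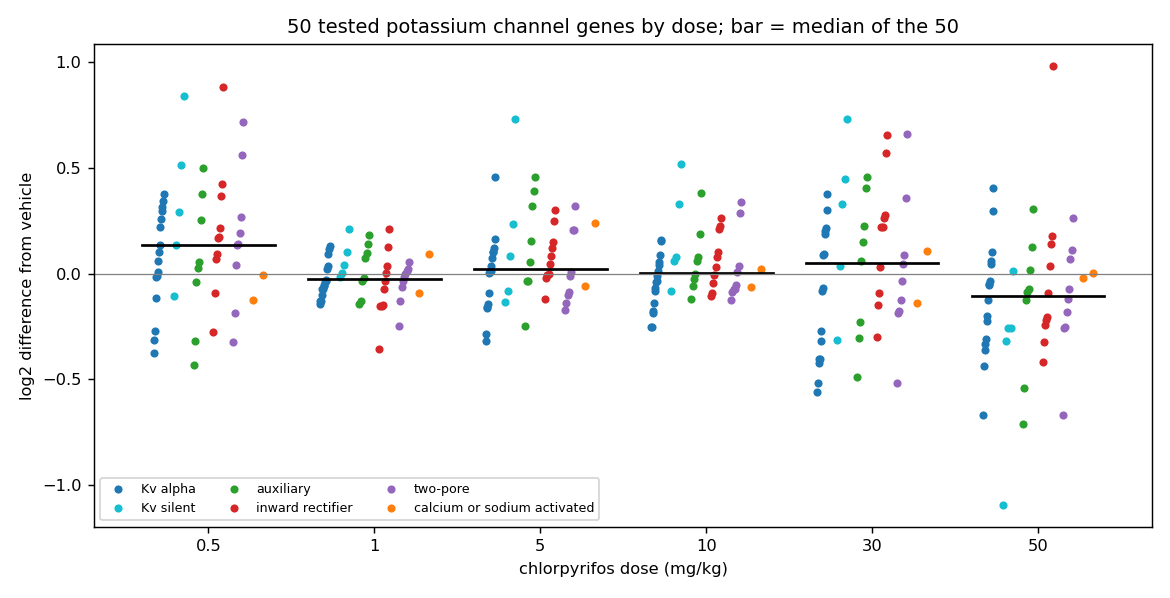
Each point is 1 of the 50 tested potassium channel genes, plotted as its log2 difference from vehicle (vertical axis) at each chlorpyrifos dose in mg/kg (horizontal axis), coloured by family, with a bar at the median of the 50. The medians stay between -0.10 and 0.13, and at 50 mg/kg the points run from -1.09 to 0.98.

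Among the pore-forming Kv subunits, 16 of 23 genes were tested (Kcna1, Kcna2, Kcna4, Kcna5, Kcna6, Kcnc1, Kcnc2, Kcnc4, Kcnd1, Kcnd2, Kcnd3, Kcnh1, Kcnh2, Kcnh3, Kcnh4 and Kcnq3). At 50 mg/kg 11 of the 16 were lower than vehicle, with a median of -0.09, and at 0.5 mg/kg 10 were higher, with a median of 0.08. In the trend 13 of the 16 had a negative slope, and none was called.

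Kcna6, which encodes the Shaker-type subunit Kv1.6, had the lowest trend p of all members. The slope was -0.10 ± 0.03 (SE) log2 units for each unit of log2(dose + 1), with an adjusted p of 0.326 in limma. In experiment B its log2 levels were 7.90, 7.78, 7.68 and 8.10 in vehicle and 7.44, 7.28 and 6.84 at 30 mg/kg, without overlap. In experiment A they were 7.75, 7.58 and 7.90 in vehicle and 7.35, 7.19 and 7.74 at 50 mg/kg, with overlap. Experiment C showed no such order, with 7.59, 7.02 and 7.36 in vehicle and 7.70, 7.23, 7.35 and 6.30 at 10 mg/kg.

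Kcnq3 encodes a subunit of the M-channel, the slow potassium current that muscarinic agonists close. Its log2 levels were 7.64, 7.84 and 7.57 in vehicle of experiment A and 7.20, 7.07 and 7.37 at 50 mg/kg, so the groups did not overlap. In experiment B they were 8.19, 7.97, 7.58 and 8.21 in vehicle and 7.65, 7.44 and 7.48 at 30 mg/kg, where vehicle animal 3 lay within the dosed range. The difference was -0.40 ± 0.16 at 30 mg/kg (adjusted p = 0.422 in limma) and -0.36 ± 0.16 at 50 mg/kg (adjusted p = 0.551). The slope over dose was -0.06 ± 0.02, with an adjusted p of 0.365 in limma. In experiment C, which went no higher than 10 mg/kg on the arrays used, the differences from its own vehicle were positive at every dose, from 0.06 to 0.20. Without experiment C the slope was -0.08 and passed the threshold, with an adjusted p of 0.0395 in limma. The share of all probe sets that passed in that fit is not given here. Kcnq1, the cardiac and epithelial relative, was too dim to be tested.

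Kcnd2 encodes Kv4.2, the dendritic A-type channel. At 30 mg/kg its difference from vehicle was -0.40 ± 0.15, with an adjusted p of 0.404 in limma. The log2 levels in experiment B were 10.14, 10.26, 10.20 and 10.13 in vehicle and 10.13, 9.61 and 9.76 at 30 mg/kg, so that 1 dosed animal lay at the level of the lowest vehicle animal. A second probe set for Kcnd2 gave -0.66 at 30 mg/kg. In that group striatal markers were lower in 10 of 10 (median -0.89), and endothelial markers averaged 8.61 to 9.32 against 8.36 to 8.50 in vehicle of experiment B, without overlap. Their part in this and the other differences at 30 mg/kg was not tested. Kcnh3, chosen after its values were seen, did not overlap in experiment A, with 10.31, 10.27 and 10.20 in vehicle and 9.82, 9.64 and 9.73 at 50 mg/kg. Its difference within that experiment was -0.53 ± 0.16, with an adjusted p of 0.205 in limma.

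The silent Kv subunits form no channel alone and alter Kv2 channels. Of 7 genes, 5 were tested (Kcng2, Kcng3, Kcns1, Kcns3 and Kcnv1). At 50 mg/kg 4 of the 5 were lower than vehicle, with a median of -0.26. Kcng2 was among the 3 members of lowest p at 5 mg/kg, with a difference of 0.23 ± 0.13 and an adjusted p of 1.00 in limma. Kcns1 gave the lowest value of any member at 50 mg/kg, -1.09. Its levels in that group were 7.02, 4.62 and 6.62, and those of 4.62 and 6.62 are on arrays with high hypothalamic markers. The vehicle animals of experiment A had 7.99, 7.81 and 6.72, so the groups overlapped.

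Auxiliary subunits comprised 8 tested genes of 12 (Kcnab1, Kcnab2, Kcnab3, Kcne2, Kcnip2, Kcnip3, Kcnip4 and Kcnmb4). Kcnab2, the beta subunit that helps to bring Kv1 channels to the axon, was higher than vehicle by 0.39 ± 0.16 at 5 mg/kg (adjusted p = 1.00 in limma), the lowest p at that dose. In experiment C its log2 levels were 10.25, 10.34 and 10.39 in vehicle and 10.96, 11.12 and 10.99 at 5 mg/kg, without overlap, and 10.96, 10.39, 10.73 and 10.67 at 10 mg/kg. Cortical neuron markers in experiment C averaged 9.52 to 10.10 in vehicle and 10.12 to 10.25 at 5 mg/kg, also without overlap. At 10 mg/kg they averaged 9.87 to 10.34, and their part in the Kcnab2 difference was not tested. The single 5 mg/kg array of experiment B, at 10.38, lay within the range of its own vehicle, 9.97 to 10.44. The second probe set of Kcnab2 varied far more, with a standard error of 0.85 at 5 mg/kg, and gave -2.24 ± 1.02 at 50 mg/kg, where the first gave -0.09 ± 0.19. Kcnab3 had the lowest p at 10 mg/kg, 0.38 ± 0.17 above vehicle, with an adjusted p of 0.999 in limma. Kcnmb4, the neuronal beta subunit of the large calcium-activated channel, was at -0.54 ± 0.23 at 50 mg/kg, with an adjusted p of 0.529.

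Inward rectifiers numbered 10 tested genes of 15 (Kcnj3, Kcnj4, Kcnj5, Kcnj6, Kcnj8, Kcnj9, Kcnj10, Kcnj11, Kcnj15 and Kcnj16). Kcnj16 encodes Kir5.1, which joins Kcnj10 (Kir4.1) in astrocyte channels. Its log2 levels in experiment A were 7.18, 6.73 and 7.78 in vehicle, 7.22, 7.36, 7.77, 7.58 and 7.64 at 10 mg/kg and 7.96, 8.88 and 8.44 at 50 mg/kg. All 3 animals at 50 mg/kg were above every vehicle and 10 mg/kg animal of that experiment. The difference was 0.98 ± 0.32, with an adjusted p of 0.347 in limma. The 50 mg/kg animals at 8.88 and 8.44 are arrays with high hypothalamic markers, which averaged 11.55 and 12.04 there. In the 10 mg/kg group of experiment A those markers averaged 6.38 to 7.30, and in its vehicle 6.73 to 8.60. At 1 mg/kg in the same experiment the Kcnj16 levels were 8.01, 8.60 and 7.04, and the animal at 8.60 is another array with high hypothalamic markers. The mean level of 9 astrocyte markers was 11.22 to 11.40 at 50 mg/kg and 11.05 to 11.21 in the vehicle of experiment A. The part of hypothalamic and astrocyte markers in the result was not tested.

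Kcnj10 itself was at -0.36 ± 0.19 at 1 mg/kg, the lowest p at that dose, with an adjusted p of 1.00 in limma, and Kcnj5 was at -0.15 ± 0.12. Kcnj11, the Kir6.2 subunit of the ATP-sensitive channel, showed the largest positive difference at 0.5 mg/kg, 0.88 ± 0.34, with an adjusted p of 0.560. In experiment B the log2 levels were 8.17, 7.83, 7.51 and 8.20 in vehicle and 9.02, 8.70 and 8.88 at 0.5 mg/kg, without overlap, and 8.56, 8.49 and 8.88 at 30 mg/kg. The dosed arrays were thus higher than vehicle at the lowest and at the highest dose of that experiment. The 2 other probe sets of Kcnj11 gave 0.35 and 0.27 at 0.5 mg/kg. Pvalb, a marker of fast-spiking interneurons, was 8.43 to 9.63 in the same vehicle animals and 9.55 to 9.94 at 0.5 mg/kg. With Pvalb as a covariate the difference of Kcnj11 was 0.47 ± 0.28 (adjusted p = 0.980 in limma).

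Two-pore channels carry the background leak current, and 9 of 11 genes were tested (Kcnk1, Kcnk2, Kcnk3, Kcnk4, Kcnk6, Kcnk9, Kcnk12, Kcnk13 and Kcnk15). This family held the members of lowest p at 0.5, 30 and 50 mg/kg. Kcnk4 encodes TRAAK, a leak channel opened by membrane stretch and polyunsaturated fatty acids. Its log2 levels in experiment A were 8.22, 8.96 and 8.29 in vehicle and 7.91, 7.70 and 7.38 at 50 mg/kg. The lower doses gave 7.99, 7.93 and 8.35 (1 mg/kg) and 8.47, 8.70, 8.80, 8.76 and 8.54 (10 mg/kg). The 50 mg/kg animals were below all other animals of that experiment, and the 10 mg/kg animals were not low. The difference at 50 mg/kg was -0.67 ± 0.21, with an adjusted p of 0.333 in limma, and within experiment A alone it was -0.83 ± 0.21, a ratio of 0.562, with an adjusted p of 0.155. The comparisons within single experiments called 0 of the 50 genes in every group, against 0.036% of all probe sets (50 mg/kg in experiment A), 0.018% (5 mg/kg in B), 0.009% (10 mg/kg in A) and 0% in the other groups. When experiment C was left out, experiments A and B shared only the vehicle dose. The estimate was then again that within experiment A, -0.83, from the same arrays. Its adjusted p in limma was 0.0432, which passes the threshold, with the spread now estimated from the remaining arrays. It is therefore not a separate result from the one with an adjusted p of 0.155, and the share of all probe sets called in that fit is not given here. At 0.5 mg/kg Kcnk4 went the other way, 0.56 ± 0.22 above vehicle, with an adjusted p of 0.560. In experiment B its levels were 7.98, 7.78, 8.13 and 8.39 in vehicle and 8.77, 8.40 and 8.45 at 0.5 mg/kg, all 3 above every vehicle animal. At that dose cortical neuron markers were higher in 7 of 8 (median 0.32) and striatal markers lower in 10 of 10 (median -0.73). The actin ratio was 1.66 to 2.15 in vehicle of experiment B and 1.34 to 1.61 at 0.5 mg/kg. The part of these shifts in the Kcnk4 difference was not tested. Kcnk4 also had the lowest adjusted p of any member in limma's test for a change at any dose, 0.445, followed by Kcnk12 at 0.558 and Kcnq3 at 0.799.

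The 50 mg/kg animals also had the lowest levels of cortical neuron markers in experiment A, an average over 8 markers of 9.88 to 10.05 against 10.29 to 10.66 in its vehicle. Of these 8 markers, 7 were lower at 50 mg/kg, with a median of -0.54; 6 had an unadjusted p under 0.05 and none was called. Striatal markers were higher in 10 of 10 (median 0.63, none called), hypothalamic markers in 3 of 3 (median 3.20, 1 called) and olfactory bulb markers in 3 of 3 (median 0.84, none called). The part of such shifts in the level of Kcnk4 was not tested. In pieces of tissue, fewer cells of a type and less RNA per cell cannot be told apart.

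Kcnk12, the halothane-inhibited channel THIK-2, lay just above the intensity filter. The animals of experiment B had log2 levels of 5.75, 6.49, 6.85 and 6.52 in vehicle, 6.94, 6.93 and 7.35 at 0.5 mg/kg, 6.39 at 5 mg/kg and 6.80, 6.78 and 7.48 at 30 mg/kg. The 0.5 mg/kg animals were all above the vehicle animals, and the 30 mg/kg animals overlapped them. The differences were 0.72 ± 0.23 at 0.5 mg/kg (adjusted p = 0.504 in limma), 0.66 ± 0.23 at 30 mg/kg (adjusted p = 0.374) and 0.34 ± 0.16 at 10 mg/kg (adjusted p = 0.999). In experiment A the level was not higher at the highest dose, with 7.33, 6.86 and 7.32 in vehicle and 7.0, 6.28 and 7.04 at 50 mg/kg. The vehicle animals of experiment B, which also had the higher actin ratios, held the lowest array of all 39 for this gene, and their part in the result was not tested.

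Kcnk3 encodes TASK-1, an acid-sensitive leak channel. Levels in experiment B were 7.98, 7.81, 8.31 and 8.14 in vehicle, 8.10, 8.23 and 7.82 at 0.5 mg/kg, 7.18 at 5 mg/kg and 7.07, 7.30 and 7.83 at 30 mg/kg. The 5 mg/kg array and 2 of the 3 arrays at 30 mg/kg were lower than all vehicle arrays. The difference at 30 mg/kg was -0.52 ± 0.19, with an adjusted p of 0.401 in limma. The second probe set of Kcnk3 lay on the other side of 0 at 30 mg/kg, at 0.48 ± 0.24, so the probe sets disagreed on direction. Kcnk15 was at -0.25 ± 0.15 at 1 mg/kg, with an adjusted p of 1.00, and this difference turned to 0.08 without experiment A.

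**Figure D2:**
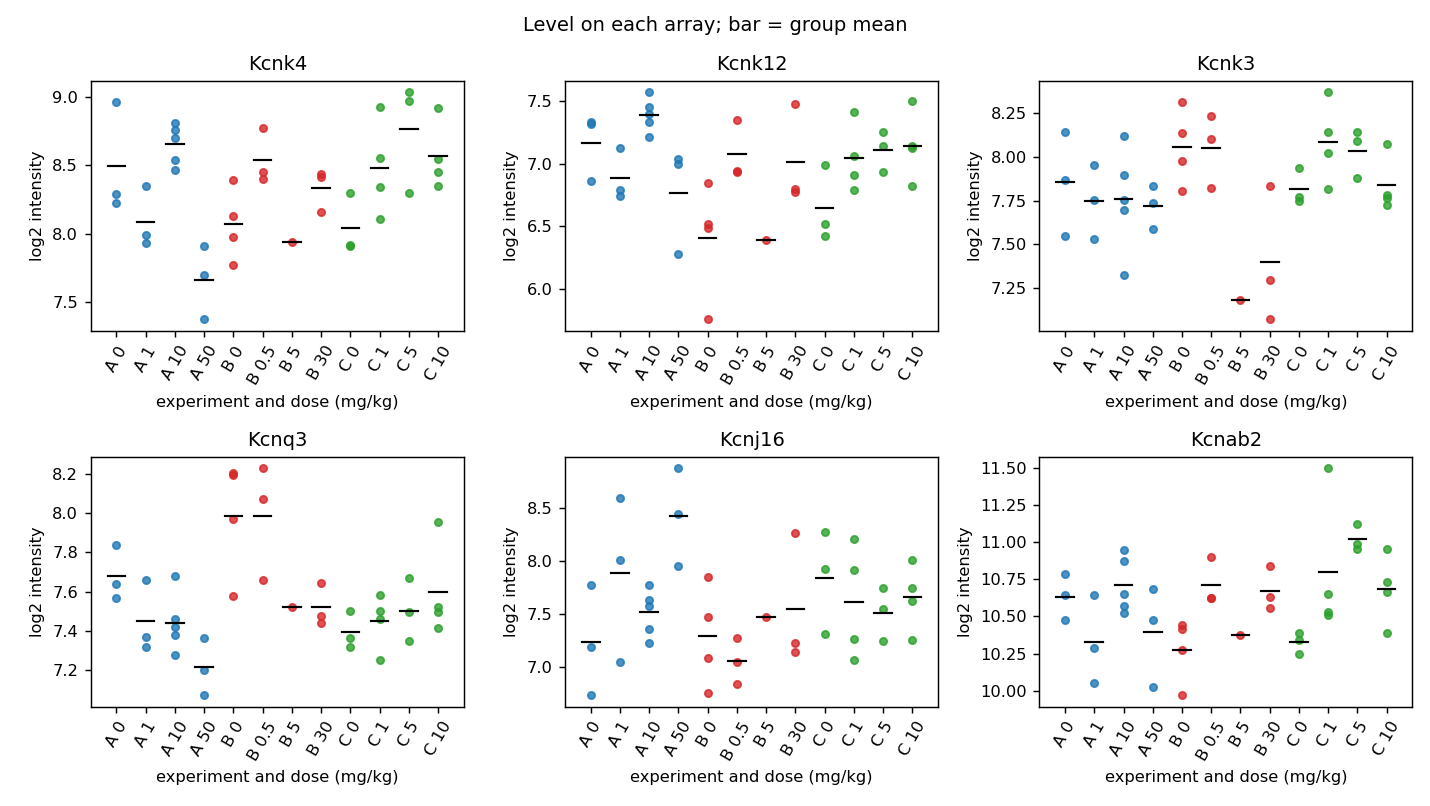
Each panel plots 1 gene, with a point for the log2 intensity of every array (vertical axis) by experiment and dose in mg/kg (horizontal axis, 0 being vehicle) and a bar at the group mean. Kcnk4 at 50 mg/kg lies below all other groups of experiment A and Kcnj16 above its vehicle and 10 mg/kg groups, while Kcnk12 and Kcnk3 depart from vehicle in experiment B.

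Of the channels gated by calcium or sodium, Kcnma1, the large-conductance calcium-activated channel, and Kcnt1, a sodium-activated channel, were tested and Kcnn1, Kcnn3 and Kcnn4 were not. Kcnma1 was 0.24 ± 0.11 above vehicle at 5 mg/kg, with an adjusted p of 1.00 in limma. At 50 mg/kg the values of Kcnma1 and Kcnt1 were within 0.02 of 0.

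The 23 genes below the filter were Kcna3, Kcnb2, Kcnh5, Kcnh6, Kcnh7, Kcnh8 and Kcnq1 among the pore-forming Kv subunits, Kcns2 and Kcnv2 among the silent ones, the auxiliary Kcne1, Kcne3, Kcnip1 and Kcnmb1, the inward rectifiers Kcnj1, Kcnj2, Kcnj12, Kcnj13 and Kcnj14, the two-pore Kcnk5 and Kcnk10, and the 3 Kcnn genes. Of them, 4 (Kcne1, Kcnn4, Kcnh8 and Kcnj1) sat at the intensity floor on 34 or more of the 39 arrays. Kcnh5 was nearest below the filter, at the 28.9th percentile, and Kcnk9 nearest above it, at the 30.5th.

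Genes listed as partners of these channels did not pass the test at any dose either. A list of 40 channel partners had 28 tested members. It holds scaffolds, anchors, G protein and calcium sensors, and also other genes, among them Hcn2, Hcn3, Rest, Fmr1 and Kcmf1. A list of 17 potassium transport genes (the sodium pump, its Fxyd regulators and the chloride cotransporters) had 11. With limma, 0 of either list were called at any dose. At an unadjusted p under 0.05, 30 mg/kg gave 3 partners and 50 mg/kg gave 4, with 1 potassium transport gene at each of these doses. Both lists together gave 10.3% and 12.8%, against 9.27% and 8.0% of all probe sets. Stx1a, a syntaxin that binds Kv channels, had the lowest p, with -0.85 ± 0.23 at 50 mg/kg and an adjusted p of 0.226. Akap5, which anchors kinases at Kcnq channels, was at -0.95 ± 0.29 at 30 mg/kg, with an adjusted p of 0.268. Dpp6, the partner of Kv4 channels, was at 0.42 ± 0.13 at 50 mg/kg, with an adjusted p of 0.328.

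In all, 3 doses were given in more than 1 experiment, which allowed the effect of the same dose to be compared. At 1 mg/kg in experiments A and C, at 10 mg/kg in A and C and at 5 mg/kg in B and C, limma called 0 of the 50 genes and 0% of all probe sets as different in effect. At an unadjusted p under 0.05 they numbered 9 of 50 at 1 mg/kg (18% against 7.34% of all probe sets), 6 at 10 mg/kg (12% against 6.62%) and 11 at 5 mg/kg (22% against 10.10%), the last resting on 1 array of experiment B.

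Kcns1, the Kv9.1 subunit, differed most. Its log2 levels in experiment C were 6.67, 6.11 and 6.95 in vehicle, 7.75, 8.89, 8.22 and 7.80 at 1 mg/kg and 8.20, 8.49 and 8.69 at 5 mg/kg, so both dosed groups lay above all vehicle animals. In experiment A they were 7.99, 7.81 and 6.72 in vehicle and 7.48, 5.56 and 6.60 at 1 mg/kg. Within experiment C the differences were 1.59 ± 0.51 at 1 mg/kg and 1.88 ± 0.54 at 5 mg/kg, ratios of 3.00 and 3.69, with adjusted p of 0.607 and 0.575 in limma. The effect at 1 mg/kg was lower in experiment A than in C by a log2 difference of -2.55 ± 0.74, with an adjusted p of 0.486. At 10 mg/kg in experiment C the levels of 7.21, 6.32, 8.83 and 7.45 overlapped vehicle. Pvalb was 8.63, 9.16 and 10.20 in vehicle of experiment C and 10.59, 11.09, 10.06 and 9.08 at 1 mg/kg, with overlap, and vehicle animal 3 combined a Pvalb of 10.20 with a Kcns1 of 6.95. In experiment A at 1 mg/kg Pvalb was 9.79, 7.99 and 9.33. With Pvalb as a covariate, a fit added after the data had been seen, the difference of Kcns1 between experiments was -1.68 ± 0.65, and within experiment C it was 1.06 ± 0.44 at 1 mg/kg and 1.42 ± 0.46 at 5 mg/kg (adjusted p of 0.849 or more in limma).

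Kcns3 (Kv9.3) differed at 1 mg/kg by -1.10 ± 0.32 and Kcnh3, the brain channel Kv12.2, by -0.66 ± 0.22, with adjusted p of 0.486 and 0.542 in limma. Kcnh3 was also first at 10 mg/kg, where its effect was lower in experiment A than in C by -0.61 ± 0.21, with an adjusted p of 0.613. The levels in experiment C were 9.76, 10.33 and 9.76 in vehicle and 10.65, 10.28, 10.38 and 10.54 at 10 mg/kg, whereas in experiment A they were 10.31, 10.27 and 10.20 in vehicle and 10.12, 10.41, 10.11, 10.10 and 10.08 at 10 mg/kg. Vehicle animals 1 and 3 of experiment C, both at 9.76, were the lowest of all 10 vehicle animals. Cortical neuron markers averaged 9.66 and 9.52 on these arrays, against 10.10 on vehicle animal 2 and 9.87 to 10.34 at 10 mg/kg in experiment C. The part of these markers in the Kcnh3 difference was not tested. The G protein-gated subunits Kcnj6 and Kcnj9 followed at 10 mg/kg, with -0.76 ± 0.33 and -0.75 ± 0.34 and adjusted p of 0.722 and 0.727. At 5 mg/kg the members of lowest p were Kcnk3 at -1.09 ± 0.32, Kcna4 at 1.24 ± 0.42 and Kcns1 at -2.69 ± 0.92, written as experiment B minus C, with adjusted p of 0.270, 0.372 and 0.372.

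Vehicle animals of the 3 experiments, none of which received chlorpyrifos, differed in 4 of the 50 genes by a moderated F test in limma. This is 8% of the genes, next to 7.75% of all probe sets (861 of 11106), so the share was that of the background. All 4 are pore-forming Kv subunits: Kcna1 and Kcna2 (Kv1.1 and Kv1.2, the axonal channels), Kcnd2 and Kcnq3.

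Kcna2 had log2 levels of 8.09, 8.10 and 8.18 in vehicle of experiment A, 8.21, 8.05, 7.90 and 8.23 in B and 7.28, 7.62 and 7.28 in C. Experiment C lay below both others without overlap, and the largest gap between group means was 0.73 (adjusted p = 0.0038 in limma). The dosed animals of experiment C stayed low as well, from 7.08 to 7.91. Kcnq3, with values given above for A and B, had 7.50, 7.32 and 7.37 in vehicle of C, and its group means spanned 0.59 (adjusted p = 0.0369). Kcnd2 was 9.61, 9.96 and 9.19 in A, 10.14, 10.26, 10.20 and 10.13 in B and 9.85, 9.91 and 9.63 in C, with B above both others and a span of 0.60 (adjusted p = 0.0382).

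Kcna1 was 9.03, 8.92 and 9.12 in vehicle of experiment A, 10.08, 9.63, 9.08 and 9.98 in B and 8.89, 8.96 and 6.0 in C. The group means spanned 1.74 (adjusted p = 0.0455 in limma), but 1 animal set most of it: without vehicle animal 3 of experiment C the span was 0.77 and the adjusted p 0.357. That array has high hypothalamic, choroid plexus and oligodendrocyte markers. The next genes did not pass: Kcnj3, a G protein-gated subunit, spanned 0.67 (adjusted p = 0.0527; 0.54 with an adjusted p of 0.0493 without experiment A, where 3 genes in all were called) and Kcnk12 spanned 0.77 (adjusted p = 0.0785). Without the 5 arrays of highest hypothalamic markers 0 of the genes were called, and without the 5 of highest choroid plexus markers 1 was. Leaving out single vehicle arrays gave 1 to 6 genes: 1 without vehicle animal 1 or 4 of experiment B or 3 of experiment C, and 2 without vehicle animal 4 of A, 2 of B or 1 of C. Of the partner lists, Calm2 and Kcmf1 (adjusted p = 0.0081 and 0.0312) and the chloride cotransporter Slc12a2 (adjusted p = 0.0395) also differed between the vehicle groups, 3 of 39 genes or 7.69%, the share of the background.

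**Figure D3:**
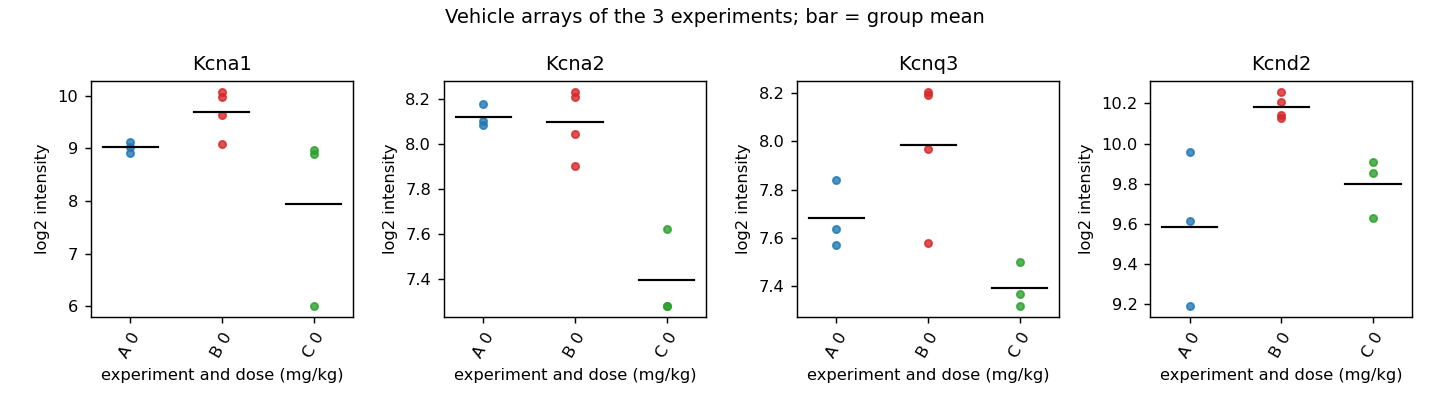
Each panel plots 1 of the 4 genes called between vehicle groups, with a point for the log2 intensity of every vehicle array (vertical axis, scaled per panel) by experiment (horizontal axis, dose 0 mg/kg) and a bar at the group mean. Kcna2 is lowest in experiment C at 7.28 to 7.62, and the Kcna1 mean of experiment C is pulled down by 1 array at 6.0.

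Over the 39 arrays the tested genes differed in how widely they varied. Kcns1 had the largest SD, 0.93 (4.62 to 8.89 on the log2 scale), followed by Kcna1 at 0.82 (6.0 to 10.08), Kcne2 at 0.64 (5.66 to 8.49), Kcnj11 at 0.55 (6.66 to 9.21), Kcnj16 at 0.51 (6.73 to 8.88) and Kcnj10 at 0.46 (6.17 to 8.44). Kcnma1, Kcnj4 (Kir2.3) and Kcnk6 varied least, with SD of 0.18, 0.19 and 0.19. Within groups of the same experiment and dose the SD of Kcns1 was still 0.71 and that of Kcnma1 0.17. Among the 1225 pairs of tested genes the median correlation over arrays was 0.06; 28 pairs were above 0.6 and 4 below -0.6. The highest was Kcnk4 with Kcns3 (r = 0.80) and the lowest Kcnd1 with Kcnj6 (r = -0.69), over 39 arrays that share experiments and tissue pieces.

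Part of this variation ran with markers of the cells or regions in the piece. Every tested gene was set against 4 marker levels in limma fits with experiment and dose as terms, a comparison added after the data had been seen. For the genes called, the correlations below use the same arrays and marker levels. Their low permutation p thus follows from the selection and is no further test, apart from the textbook pairs, whose limits are given below. It was not adjusted for the genes and levels screened, and the permutations ignored experiment and dose. With the Pvalb level 5 of 50 genes were called, 10%, next to 1.68% of all probe sets, and all 5 were higher where Pvalb was higher (0.964% of all probe sets). With striatal markers 11 were called, 22% next to 5.43%: 8 were higher with them, next to 3.00% of all probe sets, and 3 lower, next to 2.43%. With cortical neuron markers 10 were called, 20% next to 6.09%: 8 higher, next to 3.14%, and 2 lower, next to 2.96%. With oligodendrocyte markers 7 were called, 14% next to 4.90%: 5 higher, next to 3.05%, and 2 lower, next to 1.85%. In all, 21 of the 50 genes were called with at least 1 of these levels, 10 of them with more than 1, and 29 with none. Each level was fitted alone, so the 4 sets are not separate findings. On the array of highest striatal level, striatal, cortical and oligodendrocyte levels were 11.09, 9.66 and 11.94. On that of lowest striatal level they were 7.52, 10.59 and 10.80. Kcna4, Kcnc4, Kcnd1, Kcnj6 and Kcnk4 had opposite signs with striatal and cortical markers. The relation among the levels was not tested.

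Pvalb marks the fast-spiking interneurons, whose short action potentials depend on Kv3 channels. The 5 genes were Kcnc1 and Kcnc2 (Kv3.1 and Kv3.2), the silent subunits Kcns1 and Kcns3, and Kcnj11. Kcnc1 ran from 9.18 to 10.89 on the log2 scale, with its 2 highest arrays (10.89 at 10 mg/kg in experiment A and 10.60 at 1 mg/kg in C) being those of highest Pvalb (11.17 and 11.09). Over 39 arrays r was 0.73 and rho 0.75, both with a permutation p of 1e-05, the smallest that 100000 resamples can give, and r was 0.69 without the 2 arrays farthest from the median of Pvalb. Within experiments A, B and C r was 0.71, 0.81 and 0.89. Kcns3 gave r = 0.71 and rho = 0.70 (permutation p = 1e-05 for both), with 0.59, 0.82 and 0.73 within experiments and 0.68 without 2 arrays. Kcns1 gave r = 0.67 and rho = 0.63 (permutation p = 1e-05 and 4e-05), with 0.70, 0.65 and 0.65 within experiments and 0.63 without 2 arrays. Kcnc2 gave r = 0.64 and rho = 0.65 (permutation p = 1e-05 and 2e-05), with 0.50, 0.77 and 0.69 within experiments and 0.67 without 2 arrays. Kcnj11 gave r = 0.66 and rho = 0.60 (permutation p = 1e-05 and 0.00012), with 0.89, 0.72 and 0.40 within experiments and 0.58 without 2 arrays. The adjusted p of the limma fits ran from 0.000303 for Kcnc1 to 0.0268 for Kcnc2. The count of 5 became 3 without animal 2 of the 1 mg/kg group in experiment A, and 8 without animal 4 of its 50 mg/kg group or without vehicle animal 3 of experiment C. It fell to 3 or fewer when any whole experiment was left out.

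**Figure D4:**
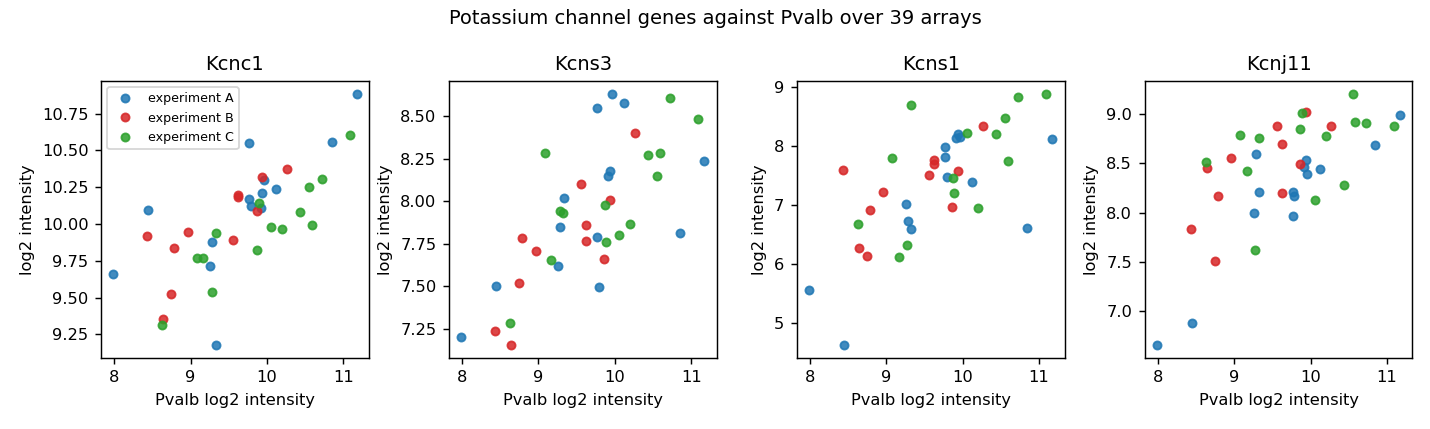
Each panel plots 1 gene, with a point for each of the 39 arrays, the log2 intensity of Pvalb on the horizontal axis and that of the gene on the vertical axis, coloured by experiment. All 4 genes are higher where Pvalb is higher, with r of 0.73 for Kcnc1, 0.71 for Kcns3, 0.67 for Kcns1 and 0.66 for Kcnj11.

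The striatal markers (11 measured of 12 listed, among them Penk, Drd1, Drd2 and Adora2a) split the channels in both directions. Higher with them were 8 genes: Kcna4, Kcna5, Kcnab1, Kcnd1, Kcnh4, Kcnip2, Kcnk2 and Kcnt1. Lower were Kcnc4, Kcnj6 and Kcnk4. Kcnk2 encodes TREK-1, a stretch- and lipid-sensitive leak channel related to Kcnk4. It had the highest correlation, r = 0.80 and rho = 0.80 (permutation p = 1e-05 for both, 39 arrays), with 0.84, 0.89 and 0.76 within experiments A, B and C and 0.76 without 2 arrays. Its log2 level was 10.44, 10.41 and 10.40 on its 3 highest arrays and 8.99 on its lowest. Those 3 arrays had striatal marker levels of 10.48, 11.09 and 10.79, and the lowest had 7.61. Kcnd1, an A-type channel of the Kv4 family, gave r = 0.77 and rho = 0.74 (permutation p = 1e-05 for both), and 0.74 without 2 arrays. Kcnab1, a Kv1 beta subunit that confers inactivation, gave r = 0.70 and rho = 0.74 (permutation p = 1e-05 for both), and 0.65 without 2 arrays.

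Kcnc4 gave r = -0.66 and rho = -0.67 (permutation p = 1e-05 and 2e-05), and -0.58 without 2 arrays. Kcnj6, the GIRK2 subunit, gave r = -0.64 and rho = -0.64 (permutation p = 2e-05 for both), and -0.58 without 2 arrays. Its lowest levels, 8.15 and 8.16, were on vehicle animal 1 of experiment C and vehicle animal 2 of experiment B, where striatal markers were 11.09 and 10.59. Kcnk4 gave r = -0.52 and rho = -0.51 (permutation p = 0.00068 and 0.00107), and -0.47 without 2 arrays. So the related leak channels Kcnk2 and Kcnk4 ran in opposite directions with this marker level, with slopes of 0.34 ± 0.04 and -0.17 ± 0.05 per log2 unit in limma (adjusted p = 1.5e-07 and 0.0251).

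**Figure D5:**
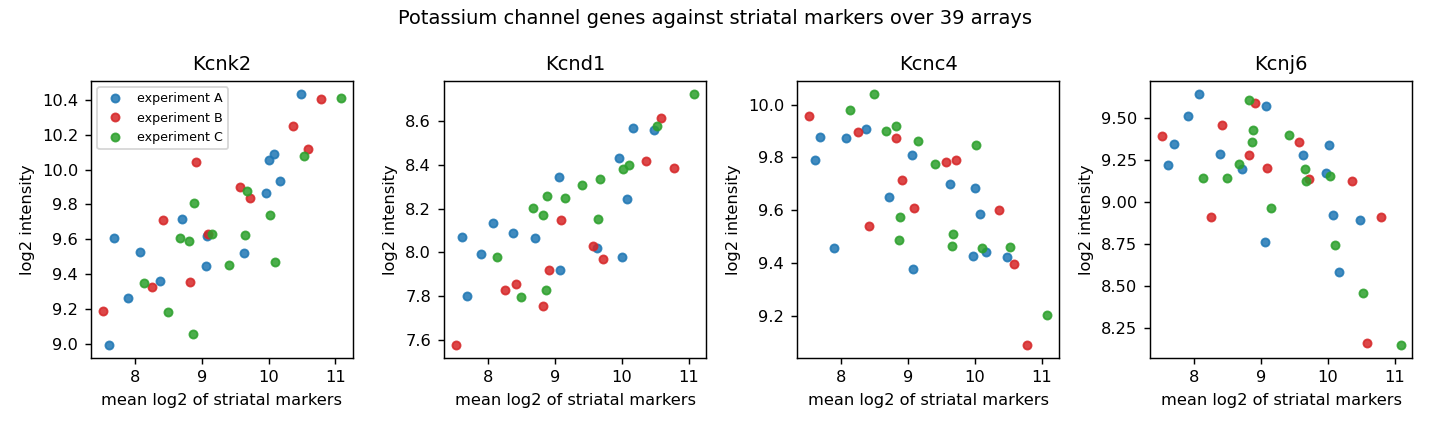
Each panel plots 1 gene, with a point for each of the 39 arrays, the mean log2 intensity of the striatal markers on the horizontal axis and the log2 intensity of the gene on the vertical axis, coloured by experiment. Kcnk2 and Kcnd1 are higher and Kcnc4 and Kcnj6 lower where striatal markers are higher, with r of 0.80, 0.77, -0.66 and -0.64.

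The cortical neuron markers gave 8 genes that were higher with them (Kcnab2, Kcnc4, Kcnh3, Kcnj3, Kcnj6, Kcnj9, Kcnk1 and Kcnk4) and 2 that were lower (Kcna4 and Kcnd1). They include the 3 G protein-gated subunits Kcnj3, Kcnj6 and Kcnj9. Kcnj9 gave r = 0.55 and rho = 0.44 (permutation p = 0.00024 and 0.00549), but 0.33 without 2 arrays. Kcnj6 gave r = 0.73 and rho = 0.65 (permutation p = 1e-05 and 4e-05), with 0.78, 0.80 and 0.71 within experiments and 0.69 without 2 arrays. Kcnk1 (TWIK-1) gave r = 0.70 and rho = 0.64 (permutation p = 1e-05 and 3e-05), and 0.70 without 2 arrays. Kcnh3 gave r = 0.50 and rho = 0.36 (permutation p = 0.00111 and 0.0259) over all arrays but 0.81, 0.88 and 0.83 within experiments A, B and C, and 0.38 without 2 arrays. Kcnk4 gave r = 0.53 and rho = 0.51 (permutation p = 0.00063 and 0.00115), with 0.81, 0.75 and 0.66 within experiments and 0.53 without 2 arrays. The count of 10 became 6 without the 5 mg/kg array of experiment B. It became 2 without experiment B and 0 without experiment C.

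With oligodendrocyte markers, Kcnab1, Kcnd1, Kcnh4, Kcnip2 and Kcnk2 were higher and Kcnh3 and Kcnj6 lower, 7 genes that were also called with striatal or cortical markers. Kcnab1 gave r = 0.69 and rho = 0.70 (permutation p = 1e-05 for both), with 0.29, 0.86 and 0.83 within experiments A, B and C and 0.71 without 2 arrays. In experiment A the relation was thus weak, and not for Kcnab1 alone. There r was 0.22 for Kcnd1, 0.24 for Kcnip2, 0.25 for Kcnk2, -0.17 for Kcnh3 and -0.34 for Kcnj6, while Kcnh4 gave 0.51. The count of 7 became 4 without vehicle animal 2 or 3 of experiment B, 3 without vehicle animal 1 of experiment C and 2 without animal 3 of its 1 mg/kg group.

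A set of 10 pairs of a gene and a marker list had been drawn from textbook knowledge, and 6 of them passed after Benjamini-Hochberg adjustment over the 10. The genes and lists were chosen with earlier results of these data known, so the pairs were not fixed blind to them. Their permutations also ignored experiment and dose. Besides Kcnc1 and Kcnc2 with Pvalb (adjusted permutation p = 5e-05 for both), these were Kcnip2 and Kcnh4 with striatal markers, Kcnj16 with astrocyte markers and Kcne2 with choroid plexus markers. Kcnip2, the KChIP2 subunit of Kv4 channels, gave r = 0.64 and rho = 0.59 (permutation p = 2e-05 and 0.00015), with 0.75, 0.79 and 0.46 within experiments and 0.67 without 2 arrays. Kcnh4 (Kv12.3) gave r = 0.54 and rho = 0.54 (permutation p = 0.00044 and 0.00067), and 0.47 without 2 arrays.

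Kcnj16 gave r = 0.46 and rho = 0.39 with 9 astrocyte markers (permutation p = 0.00338 and 0.0157, adjusted p = 0.00676 and 0.0313), and 0.45 without 2 arrays. Within experiments r was 0.77 in A, 0.07 in B and 0.24 in C, so the relation did not hold in every experiment. With the median of the same markers in place of their mean, r was 0.48 overall and 0.48, -0.22 and 0.73 within A, B and C, so which experiment carried it depended on the summary. Its partner Kcnj10 gave r = 0.07 and rho = 0.03 (permutation p = 0.666 and 0.855). Kcne2, a subunit abundant in choroid plexus epithelium, was highest at 8.49, 8.45 and 8.09 on 3 of the 5 arrays of high choroid plexus markers, and was 7.83 and 7.56 on the other two. Because these arrays form a separate cluster, the correlation was taken over the other 34, with r = 0.44 and rho = 0.38 (permutation p = 0.00988 and 0.0272, adjusted p = 0.0165 and 0.0453). It was 0.03 in experiment A, 0.56 in B and 0.59 in C, and 0.31 without 2 arrays, so it did not hold within experiment A. With the median of the markers r was 0.18 and rho 0.12 over the same arrays, and -0.12 in experiment B.

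The pairs that did not pass were Kcnj13 with choroid plexus (r = 0.04 and rho = 0.05, permutation p = 0.831 and 0.772, 34 arrays), Kcnj8 with mural cells (r = -0.08 and rho = -0.14, permutation p = 0.623 and 0.378), Kcnj4 with striatum (r = 0.22 and rho = 0.19, permutation p = 0.174 and 0.255) and Kcnj10 with astrocytes, above. For Kcnj8 the sign turned with the median of the mural markers, to r = 0.31 and rho = 0.27. Kcnj13, the Kir7.1 channel of choroid plexus, was below the intensity filter. Its pair left out the 5 arrays of high choroid plexus markers, as for Kcne2, so it says nothing about pieces rich in choroid plexus.

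The promoter windows of 2 genes that ran with Pvalb and 2 that ran with striatal markers are shown, 1 higher and 1 lower with them. They were picked, after their values were seen, among genes whose window lies at the outermost annotated start of the gene. They are RefSeq sequences on build GRCr8 and cover 250 bases before to 50 after that start, 5′ to 3′ on the gene's strand. Capitals mark any of 4 motifs searched on both strands. These are the GC box GGGCGG, the TATA box TATAAA, the core TGACG of the cyclic AMP response element (CRE) and the E-box CACGTG. Kcnc1 lies at chr1:106038997-106039296 on the plus strand, Kcns3 at chr6:39584056-39584355 on the minus strand, Kcnh4 at chr10:86188427-86188726 on the minus strand and Kcnj6 at chr11:47778299-47778598 on the minus strand.
Kcnc1: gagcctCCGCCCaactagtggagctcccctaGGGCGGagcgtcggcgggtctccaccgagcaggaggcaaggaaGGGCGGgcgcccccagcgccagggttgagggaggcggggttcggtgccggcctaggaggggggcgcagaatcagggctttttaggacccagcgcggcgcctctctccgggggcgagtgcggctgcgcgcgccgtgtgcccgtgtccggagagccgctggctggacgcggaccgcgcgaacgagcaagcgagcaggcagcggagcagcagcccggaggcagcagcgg
Kcns3: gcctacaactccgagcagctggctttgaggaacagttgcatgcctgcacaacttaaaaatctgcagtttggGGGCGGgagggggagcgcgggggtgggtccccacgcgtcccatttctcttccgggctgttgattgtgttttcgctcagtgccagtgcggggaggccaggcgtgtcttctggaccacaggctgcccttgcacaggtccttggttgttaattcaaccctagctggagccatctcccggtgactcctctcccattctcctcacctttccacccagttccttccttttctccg
Kcnh4: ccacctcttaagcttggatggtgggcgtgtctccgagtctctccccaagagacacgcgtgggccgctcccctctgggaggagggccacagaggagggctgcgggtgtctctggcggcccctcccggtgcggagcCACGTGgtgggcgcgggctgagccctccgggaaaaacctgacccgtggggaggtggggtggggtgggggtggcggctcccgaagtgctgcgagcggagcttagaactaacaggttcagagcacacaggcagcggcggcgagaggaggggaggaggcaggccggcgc
Kcnj6: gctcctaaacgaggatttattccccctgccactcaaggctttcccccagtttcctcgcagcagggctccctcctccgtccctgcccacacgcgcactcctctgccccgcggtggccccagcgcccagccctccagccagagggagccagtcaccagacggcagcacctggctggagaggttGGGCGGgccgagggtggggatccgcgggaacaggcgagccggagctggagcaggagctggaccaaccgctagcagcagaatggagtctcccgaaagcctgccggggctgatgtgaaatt
Kcnc1 has 3 GC boxes in 300 bases with 74.0% G and C, and Kcns3 has 1 with 58.3%. Kcnh4 has 1 E-box and no GC box, with 70.0% G and C, and Kcnj6 has 1 GC box with 66.7%. A window was found for 50 of the 73 genes, which are not the same 50 as those tested. Of these windows 22 lie at the outermost start of the gene and 28 at a start inside it. A GC box is in 56.0% of these 50 windows and in 34.9% of all 27457 windows of the same length, a TATA box in 4.0% and 14.3%, a CRE core in 20% and 22.0% and an E-box in 4.0% and 6.7%. The median G and C content is 62.0% in the 50 windows and 52.3% in all.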

How the data were processed

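Frontal lobe RNA of 46 rats was measured on Affymetrix rat arrays. The deposited values are linear intensities, 1 column per animal, named by the authors in the table header; the sources used here do not say how they were summarised. In this work 7 columns whose median log2 correlation with the others was under 0.5 were left out. The others were given the same median, values under the 5th percentile (an intensity of 10.9) were raised to it, and all were taken to log2 and quantile-normalized. The 57 control probe sets were dropped, and 11106 of 15866 probe sets above the 30th percentile of mean log2 were tested.

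Tests used limma 3.58.1 in R 4.3.3 (lmFit, eBayes with a trend), two-sided, with Benjamini-Hochberg adjustment over all tested probe sets. Dose effects were fitted with experiment as a term; effects within experiments, differences between them and the vehicle F test came from a fit with 1 coefficient per experiment and dose. Errors beside a difference are standard errors. The fits were tested on simulated data. Correlations used 100000 permutations over the arrays of each pair, without regard to experiment or dose.

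Symbols came from the platform annotation: 12783 probe sets had 1 symbol, 312 several and 2771 none, and all 73 genes matched a RefSeq gene with 0 renamed. Families follow symbol prefixes. Genes were named by rule: every gene called, or the 3 of smallest p in each test (6 for the vehicle test), the 10 textbook pairs, and the 6 largest and 3 smallest SD; further genes called with a marker level were named after their values were seen. The genes and lists were chosen with earlier results of these data known. Replicate numbers were not used to pair the animals in the main fits. Deviations of same-numbered animals correlated at a median of 0.0035 (43 pairs, 9 above 0.1), against 0.0029 for other numbers. This check cannot show whether a number stands for a shared dosing or processing set. Alternatives tried were the scaling, filter, floor, columns, array weights, a replicate block and leaving out arrays or experiments. For arrays, the number of animals limits the precision.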

Additional observations from a re-analysis of the deposited data

Results flagged for a closer look

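On 13 occasions 1 array stood apart from the rest of its group, by the gap to its nearest neighbour as a share of the group's range (Dixon's 95% critical value), in groups of 4 or 5 arrays. They come from 164 sets of a gene and a group, 41 genes in 4 groups, a share of 7.93%, where chance gives about 1 in 20.

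In the 10 mg/kg group of experiment A, animal 5 had the highest Kcnc1 (10.89, others 10.11 to 10.3) and Kcnj11 (8.98, others 8.39 to 8.53) and the lowest Kcna4 (7.7, others 8.02 to 8.14), and it is the array of highest Pvalb. Animal 3 of that group had the lowest Kcns1 (7.39, others 8.12 to 8.21) and Kcnj4 (9.11, others 9.54 to 9.69), and it has high choroid plexus markers. Animal 2 had the highest Kcnh3 (10.41, others 10.08 to 10.12). In the 1 mg/kg group of experiment C, animal 3 had the lowest Kcna1 (7.44, others 8.68 to 8.92) and Kcnj11 (8.13, others 8.79 to 8.92), on another array with high choroid plexus markers. Animal 2 of that group had the highest Kcnab2 (11.5, others 10.51 to 10.65). In the 10 mg/kg group of experiment C, animal 2 had the lowest Kcnj11 (7.62, others 8.84 to 9.01) and animal 4 the lowest Kcnj13 (6.04, others 6.48 to 6.55). Among the vehicle animals of experiment B, animal 2 had the lowest Kcnmb4 (10.12, others 10.85 to 10.9) and animal 3 the lowest Kcnt1 (8.66, others 8.98 to 9.05).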

How the results depend on the processing

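The count of 0 potassium channel genes changed was kept at 0.5, 1, 5, 10 and 30 mg/kg, at any dose and in all 3 comparisons of effects between experiments under every alternative run. Without experiment C it was 1 at 50 mg/kg (Kcnk4) and 1 in the trend (Kcnq3). The Kcnk4 estimate in that fit is the one within experiment A, with another estimate of the spread. The count of 4 genes that differed between vehicle groups was 2 with median scaling only, 0 with all 46 columns, 2 without the arrays labelled as a first repeat, 1 without experiment B, 0 without experiment C, 0 without the hypothalamic and 1 without the choroid plexus arrays, and 1 to 6 without single replicates. Without experiments A, B and C in turn, the counts were 1, 3 and 1 for Pvalb, 6, 2 and 0 for cortical neuron markers and 3, 3 and 0 for oligodendrocyte markers, and without A and C they were 7 and 4 for striatal markers. The oligodendrocyte count was 4 without the choroid plexus arrays. Leaving out single replicates gave 3 to 8, 8 to 13, 6 to 13 and 2 to 7 for Pvalb, striatal, cortical neuron and oligodendrocyte markers. The counts under these alternatives stand without the share of all probe sets called in the same fits. They show only how far each count moved.

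With all 46 columns 5 values turned sign, Kcnj11 at 0.5 mg/kg (-0.15), Kcnab2 and Kcnma1 at 5 mg/kg (-0.17 and -0.041), Kcnd2 at 30 mg/kg (0.16) and Kcnj6 in the difference at 10 mg/kg (0.16); 7 of those columns have rows that could not be matched. Kcnk15 at 1 mg/kg turned to 0.080 without experiment A. The causes were not tested, and leaving out an experiment also leaves fewer arrays. With the replicate number as a block, 0 genes were called at every dose. With Pvalb as a covariate the difference of Kcnj11 at 0.5 mg/kg was 0.47 and that of Kcns1 at 1 mg/kg between experiments -1.68, with 0 genes called in each of those tests. The hypothalamic, choroid plexus, Pvalb covariate and marker level fits were chosen after seeing the data. A fit with an arm of 1 array assumes that it varies like the other groups.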
